A study of Mus musculus with 8 samples.

Results

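Bile salt and bile lipid transporters were described in mouse liver as 10 genes out of the 45706 genes of the deposited count table. The genes were taken by symbol from a list of transporters of the sinusoidal, canalicular and bile duct cell membranes, and all 10 were found. Liver RNA was sequenced from 4 mice labelled HuR KO and 4 mice labelled HuR WT, all of the C57BL/6 strain, with 1 library per mouse. HuR, the product of Elavl1, binds AU-rich and uridine-rich stretches of messenger RNA. The deleted exons, the cells that carried the deletion, and the age and sex of the mice are not given in the sources used here. Levels are CPM, read counts set to a common library size with scaling by the trimmed mean of M-values (TMM), and KO and WT name the labels of the livers throughout.

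Bile salts circulate between liver and intestine. Hepatocytes take them up from blood across the sinusoidal membrane, and ATP-driven pumps move bile salts, phospholipid and organic anion conjugates across the canalicular membrane into bile. A separate set of exporters returns bile salts and conjugates to blood, and bile duct cells can take bile salts back from bile.

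Abcc3, which encodes the basolateral exporter MRP3, rose 1.46-fold in livers labelled KO. Slc10a2, which encodes the apical sodium-dependent bile acid transporter ASBT, fell 2.22-fold, a call that was lost in 6 of the 8 fits that each left out 1 library. The other 7 members that passed the filter on low counts did not pass the test, and Slc51a had no count in any library. Of the 9 members tested, 1 was called higher, against 2.32% of all 14645 genes tested, and 1 was called lower, against 1.37% of all genes tested (edgeR quasi-likelihood test, Benjamini-Hochberg adjusted p under 0.05). Every liver labelled KO lay beyond every liver labelled WT for these 2 members, and 6.19% of all genes tested had every KO liver higher and 5.01% every KO liver lower. The median log2 fold change of the 9 members was 0.06.

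Elavl1 itself was not lower in the livers labelled KO. It stood at 49.4, 56.0, 49.1 and 45.6 CPM in KO livers and at 32.7, 45.7, 42.9 and 46.6 CPM in WT livers. Its log2 fold change was 0.25 (SE 0.11, edgeR adjusted p = 0.258), so that the gene's count does not check the labels, and whether the deleted part lies within the counted exons is not given. All directions below are therefore between libraries labelled KO and libraries labelled WT. Total counts ranged from 18649618 to 31249286 per library, and of 14 hepatocyte markers found among the counted genes, 0 passed the test, with Apob (−0.39, edgeR adjusted p = 0.0613) and Cyp2e1 (−0.32, edgeR adjusted p = 0.190) nearest to it. In both, every KO liver was below every WT liver, as in 5.01% of all genes tested. The count of hepatocyte markers called lower was 1 with no filter on low counts, with DESeq2 and without WT3. It was also 1 with the series of animal numbers (given next) as a term. The animal numbers in the labels form 2 series, 98 to 100 (WT3, KO3 and KO4) and numbers of 4 digits (the other 5 livers), whose meaning is not given. Because whole liver was sequenced, fewer cells of a type and less RNA per cell cannot be told apart.

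The sequences that go with the called members are shown first. The 300-base promoter windows are from RefSeq (GRCm38.p6), reach from 250 bases before the annotated start to 50 bases after it, and matched 8 of the 10 members. Slc10a2 is shown because it is a called member with an entry, and Abcb11 because its textbook regulator is the bile acid receptor FXR, encoded by Nr1h4. In Slc10a2, on the minus strand of chr8:5105238-5105537, capitals mark a HNF1 core motif (GTTAAT on the opposite strand) at −217 and an AP-1 motif (TGANTCA) at −118 from the annotated start. In Abcb11, on the minus strand of chr2:69342567-69342866, capitals mark the FXR inverted repeat (AGGTCA and its reverse complement, 1 base apart) with at most 1 mismatch at −63, which overlaps the nuclear receptor core AGGTCA at −56 on the opposite strand.
Slc10a2 promoter: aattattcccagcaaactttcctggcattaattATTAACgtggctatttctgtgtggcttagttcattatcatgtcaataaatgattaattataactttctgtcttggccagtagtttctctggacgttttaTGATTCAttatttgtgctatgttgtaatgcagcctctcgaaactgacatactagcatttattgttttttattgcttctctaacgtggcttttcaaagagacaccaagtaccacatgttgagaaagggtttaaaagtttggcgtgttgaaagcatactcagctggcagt
Abcb11 promoter: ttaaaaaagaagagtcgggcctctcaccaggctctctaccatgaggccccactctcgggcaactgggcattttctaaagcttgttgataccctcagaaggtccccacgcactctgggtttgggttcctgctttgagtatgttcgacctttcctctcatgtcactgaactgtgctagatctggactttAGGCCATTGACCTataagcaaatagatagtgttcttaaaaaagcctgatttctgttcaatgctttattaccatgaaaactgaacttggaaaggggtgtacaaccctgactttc

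Both strands of all 32851 RefSeq windows were searched for the same letters. GTTAAT was in 7.1% of them, TGANTCA in 7.81%, AGGTCA in 16.3%, CAAGGTCA (the extended core of the receptor LRH-1) in 1.56% and the inverted repeat with at most 1 mismatch in 0.0822%. The inverted repeat was in no other member's window, exactly or with 1 mismatch. AGGTCA was also in the windows of Slc51b, Slc51a, Abcc2 and 1 of 2 windows of Slc10a1, and CAAGGTCA was in none of the members' windows. A match of letters is a description of the window and shows no binding.

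In 3′ untranslated regions, taken from GENCODE transcripts on GRCm38, the letters searched were ATTTA, the core of AU-rich elements, and runs of at least 7 T, on the transcribed strand only. The windows shown are those of the called members and of Abcc2, whose 3′ region held the most ATTTA among the members, with both motifs in capitals. Each window of 30 bases was picked for holding both motifs where possible, then for the most ATTTA. Its density of motifs is therefore a result of that choice, and a match of letters shows no binding. They lie at chr11:94343592-94343621 on the minus strand for Abcc3, chr8:5086100-5086129 on the minus strand for Slc10a2, and chr19:43840643-43840672 on the plus strand for Abcc2.
Abcc3 window: ccatgagtggggacATTTAgagTTTTTTTT
Slc10a2 window: acaatattcattaaactaaaactgaATTTA
Abcc2 window: gATTTAcagccagttctATTTAtctATTTA

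The Abcc3 3′ region of 369 bases held 1 ATTTA and 8 matches to 7 T in a row, counted at each start within a longer run. Its longest run was 12 T, and the run in the window shown is a shorter one. Among 1063 tested genes with a 3′ region of similar length (0.8 to 1.2 times), 39.8% held an ATTTA and 15.6% a run of at least 7 T. The median count in those genes was 0 for both motifs. The Slc10a2 3′ region of 2937 bases held 7 ATTTA, against a median of 5 in genes of similar length, 95.8% of which held at least 1. It held 2 matches to 7 T in a row (a longer run gives a match at each start), against a median of 3, and 74.1% of such genes held at least 1. Abcc2 held 12 ATTTA in 3183 bases, against a median of 5, and its level did not pass the test. Abcb11 and Abcc4 held 1 and 3, against medians of 1 and 2 in genes of similar length. Abcb4, Abcc6, Slc51b, Slc10a1 and Slc51a held none. Of genes of similar length, 8.7% held an ATTTA for Abcb4 (51 bases) and 13.3% for Slc51b (83 bases). That share was 45.8% for Abcc6 (456 bases), 45.3% for Slc10a1 (452 bases) and 79.6% for Slc51a (1238 bases).

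Of the uptake transporters, Slc10a1 encodes NTCP, the sodium-dependent carrier that takes conjugated bile salts from blood into hepatocytes (chr12:80953185-80968079, mm10, minus strand). Its level was 856, 870, 884 and 966 CPM in KO livers and 789, 749, 982 and 814 CPM in WT livers. The groups overlapped because WT3 was the highest of the 8 livers. The difference, as a log2 fold change, was 0.10 (SE 0.11, 95% interval −0.14 to 0.34, edgeR adjusted p = 0.694).

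Slc10a2 encodes ASBT, the carrier that takes bile salts up across the apical membrane of bile duct cells and of the ileum (chr8:5085623-5105232, mm10, minus strand). It was counted at 12.2, 6.62, 8.04 and 4.77 CPM in KO livers and at 13.3, 18.4, 22.5 and 15.7 CPM in WT livers. All 4 KO livers were below all 4 WT livers, with KO1 and WT1 closest to each other. The counts behind these levels were 127 to 315 reads in KO livers and 283 to 682 reads in WT livers. A log2 fold change of −1.15 resulted (SE 0.27, adjusted p = 0.0439 by the quasi-likelihood test of edgeR, Benjamini-Hochberg), and the exact 2-sided permutation p was 0.0286, the smallest that 4 against 4 libraries can give. Within the 4-digit animals it was −0.75 (adjusted p = 0.142, edgeR), and among the animals numbered 98 to 100, with a single WT liver, it was −1.82. The call was also lost with no filter on low counts (edgeR adjusted p = 0.116), with the animal-number series as a term (0.0742), and without any one of KO2, KO3, KO4, WT1, WT2 or WT4 (0.0502 to 0.121). The fold stayed below 1 under each of these settings, and DESeq2 gave an adjusted p of 0.00034. The counted exons of Slc10a2 spanned 1629 bp, against 4152 bases of its GENCODE transcript, so reads from part of that transcript did not enter its count.

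**Figure D1:**
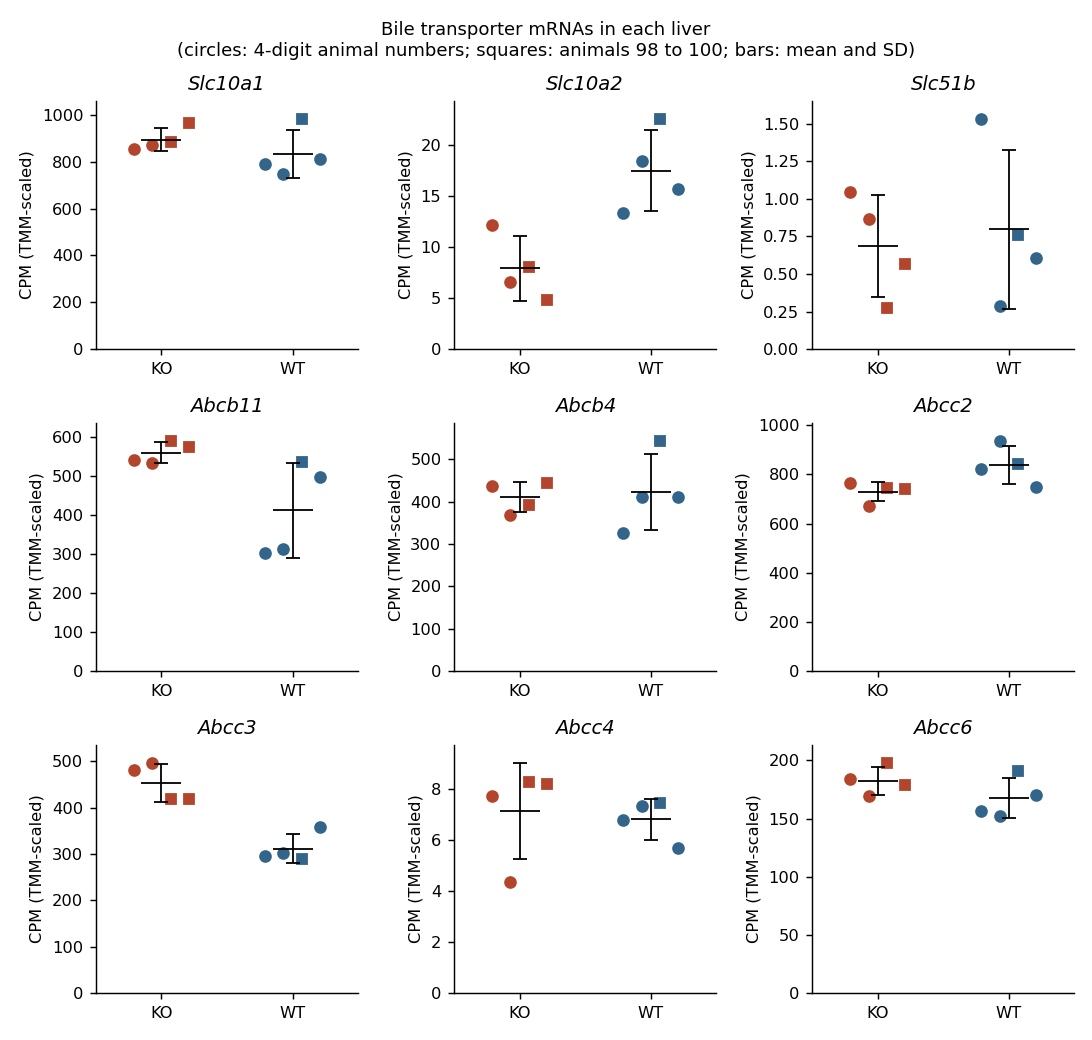
CPM of each tested member in each liver, 1 point per liver with KO left of WT. Circles are 4-digit animals, squares are animals 98 to 100, and bars give the group mean with the SD. Slc51a, which had no count, is not shown. Abcc3 and Slc10a2 are the members whose groups do not overlap, and WT3 sits with the KO livers for Abcb11.

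Of the pumps that fill bile, Abcb11 encodes BSEP, which secretes bile salts across the canalicular membrane (chr2:69238282-69342616, mm10, minus strand). It was counted at 540, 533, 589 and 575 CPM in KO livers and at 302, 314, 536 and 496 CPM in WT livers. WT1 and WT2 were low, while WT3 and WT4 came near the KO livers, and WT3 overlapped them. The coefficient of variation was 4.85% in KO livers and 29.5% in WT livers. The log2 fold change was 0.44 (SE 0.17, edgeR unadjusted p = 0.0248, adjusted p = 0.198), which did not pass the test. Without WT3 it was 0.59 and passed (edgeR adjusted p = 0.0297), and among the animals numbered 98 to 100 it was 0.11.

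Abcb4 encodes MDR2, the floppase that delivers phosphatidylcholine into bile (chr5:8893717-8959231, mm10, plus strand). Its libraries held 438, 368, 393 and 443 CPM in KO livers and 325, 411, 543 and 411 CPM in WT livers. The WT livers spanned the whole range of the KO livers. The log2 fold change was −0.04 (SE 0.14, 95% interval −0.34 to 0.25, edgeR adjusted p = 0.918). The span of Gm17936 overlaps that of Abcb4 on the same strand, and whether they share counted exons was not tested.

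Abcc2 encodes MRP2, which secretes glutathione and glucuronide conjugates, bilirubin glucuronides among them, into bile (chr19:43782192-43840740, mm10, plus strand). It was counted at 764, 673, 743 and 739 CPM in KO livers and at 820, 935, 844 and 749 CPM in WT livers. KO1 lay above WT4, and the other KO livers lay below every WT liver. The log2 fold change was −0.20 (SE 0.11, 95% interval −0.42 to 0.03, edgeR adjusted p = 0.342).

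Of the exporters to blood, Abcc3 encodes MRP3, which carries glucuronide conjugates and bile salts across the basolateral membrane (chr11:94343295-94392997, mm10, minus strand). It was counted at 480, 496, 418 and 419 CPM in KO livers and at 295, 303, 289 and 358 CPM in WT livers. Every KO liver was higher than every WT liver, and WT4 was the highest of the WT livers. A log2 fold change of 0.54 resulted (SE 0.11, adjusted p = 0.0128 by the quasi-likelihood test of edgeR, Benjamini-Hochberg), which is a fold of 1.46 with a 95% interval of 1.24 to 1.71. It was 0.62 within the 4-digit animals (edgeR adjusted p = 0.0199) and 0.53 among those numbered 98 to 100. The call was lost without WT2 (log2 fold change 0.53, edgeR adjusted p = 0.0565).

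Abcc4 encodes MRP4, a basolateral exporter of bile salts together with glutathione (chr14:118482692-118706219, mm10, minus strand). It was counted at 7.70, 4.33, 8.27 and 8.20 CPM in KO livers and at 6.78, 7.32, 7.43 and 5.66 CPM in WT livers. KO2 was the lowest of all 8 livers, and the other KO livers were above the WT livers. The log2 fold change was 0.06 (SE 0.20, 95% interval −0.37 to 0.49, edgeR adjusted p = 0.915), and its sign turned in several alternative fits.

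Slc51a and Slc51b encode the α and β subunits of the organic solute transporter, a bile salt carrier that needs both subunits and is abundant in the ileum. Slc51a (chr16:32475522-32487879, mm10, minus strand) had 0 counts in all 8 libraries. A floor of 3 counts corresponded to 0.0991 to 0.166 CPM per library, which covers counting error only. The counted exons of Slc51a spanned 1600 bp, against 2618 bases of its GENCODE transcript. Those of Slc51b spanned 488 bp against 709 bases, so reads from part of both transcripts did not enter the counts. Slc51b (chr9:65412753-65422773, mm10, minus strand) was counted at 1.05, 0.867, 0.272 and 0.564 CPM in KO livers and at 1.53, 0.288, 0.760 and 0.610 CPM in WT livers, from 7 to 42 reads per library. The KO livers lay almost wholly within the range of the WT livers, and the log2 fold change of −0.23 (SE 0.53, edgeR adjusted p = 0.876) had a 95% interval from −1.36 to 0.91.

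Abcc6 encodes MRP6, a basolateral hepatocyte protein needed for ATP release and not a known bile salt carrier (chr7:45976380-46030302, mm10, minus strand). The livers labelled KO held 184, 170, 198 and 179 CPM, and the livers labelled WT held 156, 153, 191 and 170 CPM. WT3 and WT4 were within the KO range. The log2 fold change was 0.12 (SE 0.10, edgeR adjusted p = 0.559).

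**Figure D2:**
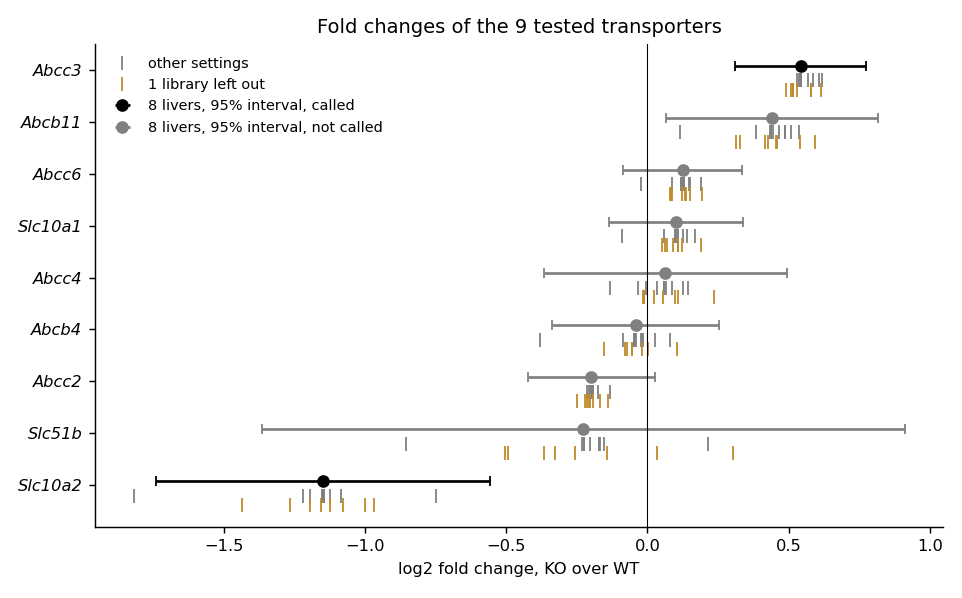
Log2 fold change of each tested member, livers labelled KO over livers labelled WT, with its 95% interval. Abcc3 at 0.54 and Slc10a2 at −1.15 are the called members, and the interval of Slc51b is the widest.

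Levels can be compared between genes only per length, here as CPM per kb of counted exon. Slc10a1 was highest, at 534 ± 29.4 in KO livers and 498 ± 61.2 in WT livers (SD, n = 4 each). In KO livers Abcb11 came next at 109 ± 5.28, then Abcc2 at 85.5 ± 4.61 and Abcc3 at 79.6 ± 7.14 CPM per kb, and the ranges of Abcc2 and Abcc3 over the 4 livers overlapped. In WT livers Abcc2 came next at 98.1 ± 9.0, then Abcb11 at 80.1 ± 23.6 and Abcc3 at 54.7 ± 5.55 CPM per kb, and the ranges of Abcc2 and Abcb11 overlapped, as did those of Abcb11 and Abcc3. Abcb4 followed at 43.7 ± 3.83 in KO livers and 45.01 ± 9.58 in WT livers, and Abcc6 at 33.4 ± 2.16 and 30.7 ± 3.17 in KO and WT livers, in CPM per kb. The ranges of Abcb4 and Abcc6 overlapped in WT livers and did not in KO livers. Slc10a2 stood at 4.85 ± 1.94 in KO livers and 10.7 ± 2.43 in WT livers, above Slc51b and Abcc4, which overlapped each other near 1. The counted exons of Abcb4 spanned 9383 bp against 4079 bases of its transcript. Per kb of transcript Abcb4 averaged 100.6 in KO livers and 103.5 in WT livers, close to Abcc2 at 90.9 in KO livers and 104.3 in WT livers.

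**Figure D3:**
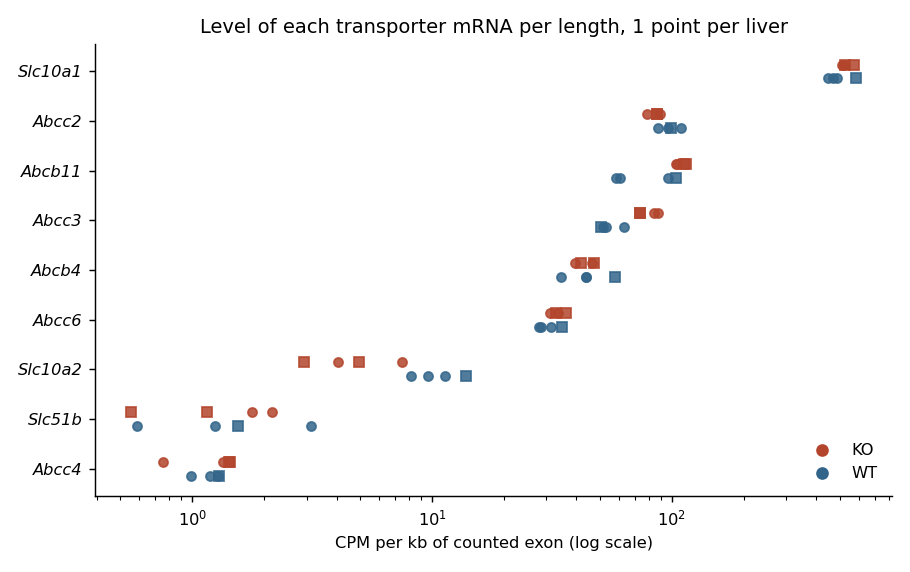
CPM per kb of counted exon for each member on a log axis, 1 point per liver, with the KO livers above the WT livers and squares for animals 98 to 100. Slc10a1 is the highest in both groups and Slc51a is absent because it had no count.

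The other genes of the pathway were taken from lists. In the 9 uptake genes of organic anions, 0 rose and 2 fell: Slco1a1, an organic anion carrier, was at 0.300 ± 0.287 CPM in KO livers and 13.1 ± 5.39 CPM in WT livers (log2 fold change −5.40, edgeR adjusted p = 0.00341), with no count in KO4, and the amino acid carrier Slc16a10 was at 150 ± 17.9 CPM in KO livers and 215 ± 37.1 CPM in WT livers (−0.52, edgeR adjusted p = 0.0391). Among 16 genes of bile acid synthesis and conjugation, 1 rose, Amacr, the racemase of side-chain shortening, at 157 ± 17.6 CPM in KO livers and 112 ± 14.1 CPM in WT livers (0.49, edgeR adjusted p = 0.0259), and 0 fell. The count of 2 lower uptake genes was 1 with scaling by library size alone and without KO1, KO3, KO4, WT1, WT2 or WT4, and that of 1 higher synthesis gene was 0 without KO1, KO3, KO4, WT1 or WT2 and 2 without WT3 or WT4, with no filter on low counts, with library size alone, with DESeq2 and with the replicate number as a block. Of the synthesis genes, 2 were higher and 4 lower at an unadjusted p under 0.05, and the count called lower was 1 with DESeq2, 1 without KO2 and 2 without WT3. In 2 of them every KO liver was above every WT liver, against 6.19% of all genes tested. In 2, Cyp7a1 among them, every KO liver was below every WT liver, against 5.01% of all genes tested. Cyp7a1 had the largest fold change of that list and was not called. It was at 129 ± 90.3 CPM in KO livers and 317 ± 51.0 CPM in WT livers (−1.30, edgeR adjusted p = 0.246). The count of higher uptake genes was 1 with DESeq2 and without KO2. Of 10 partner transporters of the canalicular membrane, 0 passed the test in either direction, although 3 were lower at an unadjusted p under 0.05 and 1 was called lower without WT3. The smallest p values there belonged to the xenobiotic exporter gene Abcg2 (−0.35, edgeR adjusted p = 0.114) and the copper pump gene Atp7b (−0.34, edgeR adjusted p = 0.159). Of 16 tested genes of bile acid sensing and its regulators, 0 passed, with 3 lower at an unadjusted p under 0.05, and 1 was called higher without WT3. Nr1h4 averaged 145 ± 23.8 CPM in KO livers and 176 ± 19.6 CPM in WT livers (−0.28, edgeR adjusted p = 0.239), and the lipid receptor gene Ppara was at −0.40 (edgeR adjusted p = 0.197).

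Among 12 apical scaffold and trafficking genes 1 rose, the membrane linker gene Ezr, at 12.7 ± 1.90 CPM in KO livers and 5.98 ± 1.40 CPM in WT livers (log2 fold change 1.09, edgeR adjusted p = 0.00403). Of 5 other ABC subfamily C genes tested, 2 rose, the potassium channel regulator gene Abcc9 (0.49, edgeR adjusted p = 0.0293) and the chloride channel gene Cftr of bile duct cells (3.07, edgeR adjusted p = 0.00204). That count was 1 within the 4-digit animals and without KO1, KO3, KO4, WT1, WT2 or WT4. The share of genes called in either direction was 22.2% of the 9 members tested and 3.69% of all genes tested. The members' share rests on Abcc3 and Slc10a2, and the call of Slc10a2 was lost in several settings. As the members were chosen with earlier results of these data known, their share is not read as an enrichment. Among the members and the gene lists above, cell type markers aside, median log2 fold changes ran from −0.09 in bile acid synthesis to 0.49 in the other ABC subfamily C genes.

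**Figure D4:**
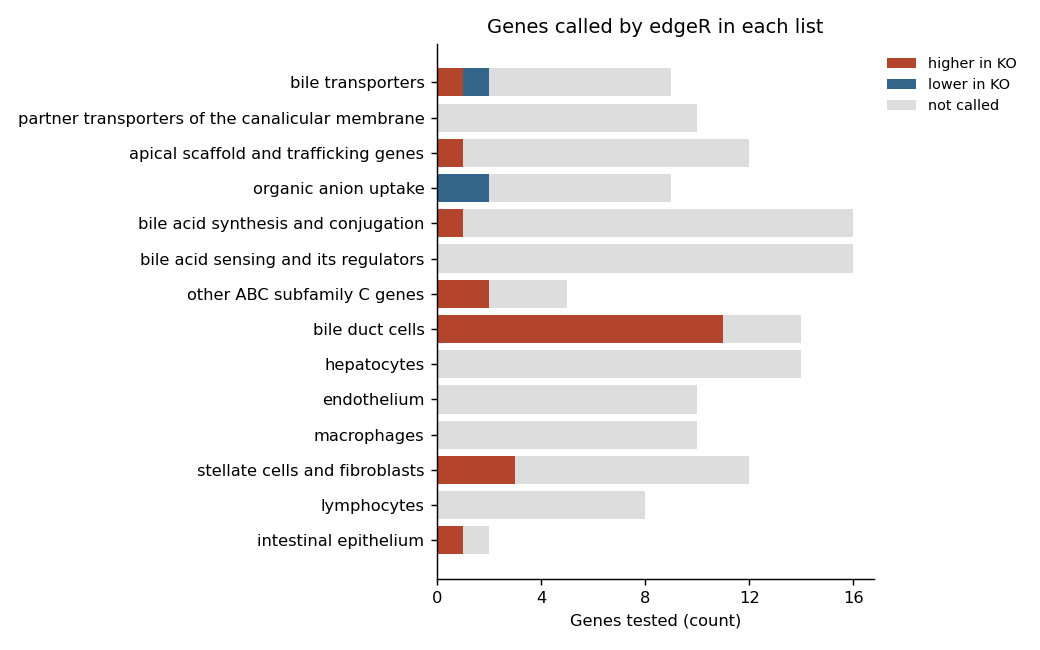
Number of genes called higher, called lower and not called in each list, livers labelled KO over livers labelled WT. Uptake of organic anions has 2 genes lower and none higher, and the other ABC subfamily C genes have 2 higher and none lower.

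Markers of other cell types moved with the labels. Of 14 bile duct cell markers tested, 11 rose and 0 fell, among them Krt7, Epcam, Spp1 and Cd24a. Their summed level was 345 to 440 CPM in KO livers and 204 to 227 CPM in WT livers. Spp1, at 166 ± 43.0 CPM in KO livers and 43.1 ± 9.48 CPM in WT livers, made up most of the difference in that sum. Aqp1, another large part of it, was at 139 ± 10.5 CPM in KO livers and 128 ± 6.02 CPM in WT livers and did not pass the test (edgeR adjusted p = 0.532). Of 12 markers of stellate cells and fibroblasts, 3 rose, Lum, Col1a1 and Col3a1, and their summed level was 555 to 647 CPM in KO livers and 463 to 502 CPM in WT livers. That count was 1 within the 4-digit animals and without KO1, KO3, KO4 or WT2. At an unadjusted edgeR p under 0.05, 9 of the 12 were higher and 0 lower, and their median log2 fold change was 0.52. In 8 of them every KO liver was above every WT liver, against 6.19% of all genes tested. Of 10 endothelial, 10 macrophage and 8 lymphocyte markers tested, 0 passed, and Fabp6, Alpi, Cdx1, Sis and Krt20 of intestinal epithelium had no count, whereas Vil1 of the same list rose. Vil1 was at 1.78 ± 1.32 CPM in KO livers and 0.149 ± 0.131 CPM in WT livers. In WT1 and WT2 its level was 0.0364 and 0.0411 CPM, below the floor of 3 counts. The call of Vil1 was lost with the stricter filter, with limma-voom, within the 4-digit animals and without KO3, KO4 or WT2. Fabp2, the other tested gene of that list, was at 56.2 ± 4.31 CPM in KO livers and 67.0 ± 27.5 CPM in WT livers and was not called (edgeR adjusted p = 0.666), and 0 of 8 kidney tubule markers had enough counts to be tested. Slc10a2 fell in the livers where bile duct markers were higher. Within KO livers, KO3 and KO4 had the higher bile duct sums and the lower Abcc3, and they are also the KO animals numbered 98 and 99, so that within KO livers this contrast and the animal-number series cannot be told apart. The part of these cell types in the values of Abcc3 and Slc10a2 was not tested.

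**Figure D5:**
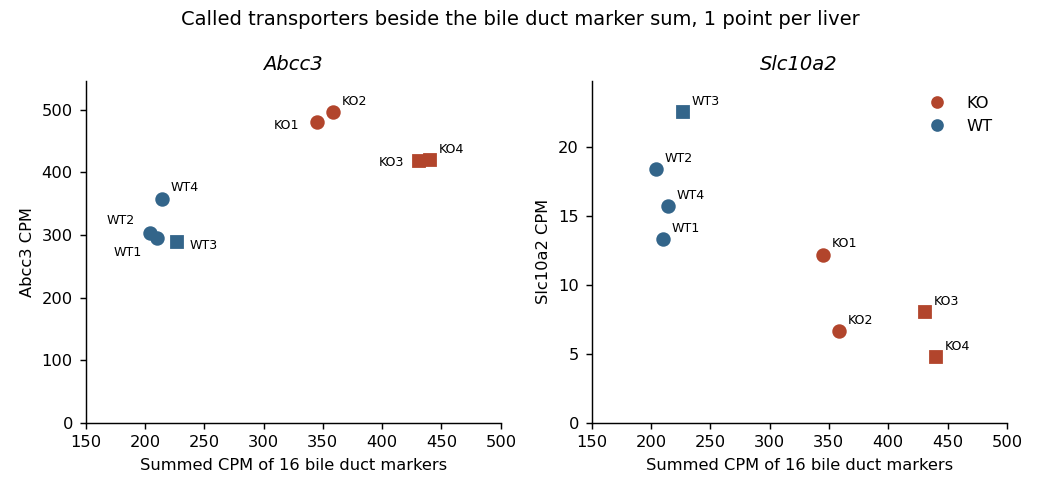
CPM of Abcc3 and Slc10a2 in each liver against the summed CPM of the 16 listed bile duct markers, with KO and WT livers in separate colours and squares for animals 98 to 100. The KO livers lie at 345 to 440 CPM of markers and the WT livers at 204 to 227, with Abcc3 higher and Slc10a2 lower in KO.

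Genes whose levels followed those of a called member most closely over the 8 libraries were ranked by the root mean square difference of log2 CPM after each gene was centred on its mean, among 12815 genes. For Abcc3 these were Wdr45b (0.0970), Zfp994 (0.0987) and Fbln2 (0.109). For Slc10a2 they were Tesmin (0.279), Bahcc1 (0.293) and Mup4 (0.295), and Slc10a2 itself varied more, with an SD of 0.76 against 0.32 for Abcc3 on that scale.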

How the data were processed

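Liver RNA was isolated from frozen tissue and made into strand-specific libraries from enriched mRNA, per the labels' protocols. The deposited values are raw read counts per gene. The submitters' processing notes name bcl2fastq 2.19.1, the aligner GSNAP, the counter featureCounts 1.5.1 and the build mm10 (GRCm38). The authors counted against Ensembl release 81 with strand setting 2 and a minimum mapping quality of 1, per the file headers. Of 45706 genes, 45143 matched a symbol, and 92 spike-in rows held 0 counts.

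Counts were tested as deposited with edgeR 4.0.16 (R 4.3.3, limma 3.58.1) by the quasi-likelihood test, KO over WT, after filterByExpr (minimum count 10) and TMM scaling, with Benjamini-Hochberg adjustment over 14645 genes. CPM used the scaled library sizes. Single values were compared by exact 2-sided permutation. The self-test ran on simulated counts. Alternatives covered scaling, filters, DESeq2 1.42.0, limma-voom, animal-number series, replicate number and each library left out. All members were named. Of each other list, the called genes with the smallest p were named (at most 4), or the 2 smallest p where no gene was called. Some other genes were also named, such as Cyp7a1 for its fold change. Members and lists were chosen with earlier results of these data known.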

Additional observations from a re-analysis of the deposited data

Results flagged for a closer look

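Among 86 groups of 4 libraries examined, 3 held a library far from the other 3, and chance alone would flag about 1 in 20. Abcc4 was at 4.33 CPM in KO2, against 7.70 to 8.27 CPM in the other KO livers. Apob, a hepatocyte marker, was at 11042 CPM in WT3, against 9463 to 9504 CPM in the other WT livers. The summed endothelial markers were at 474.6 CPM in WT4, against 543 to 550.4 CPM in the other WT livers.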

How the results depend on the processing

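Members called higher numbered 1 and members called lower numbered 1, and 2 members had groups that did not overlap. Leaving out 1 library at a time gave 0 to 2 members called higher, 0 to 1 called lower and 2 to 4 without overlap. The higher count was 0 without WT2 and 2 without WT3. With no filter on low counts, with the animal-number series as a term, and within the 4-digit animals, 0 members were called lower, and within the 4-digit animals 4 members did not overlap. Groups of fewer livers separate more easily, and the share of all genes without overlap was counted for the full set of livers only. The rise in members without overlap is therefore not read as clearer separation. Among animals 98 to 100 the sign turned for Slc10a1 (−0.090) and Abcc6 (−0.021). Within the 4-digit animals it turned for Slc51b (0.21), Abcb4 (0.079) and Abcc4 (−0.13). Abcb4 was at 0.026 with library size alone, and Abcc4 at −0.0050 with limma-voom and −0.033 with the series as a term. Leaving out 1 library moved Slc51b between −0.50 and 0.30, Abcb4 between −0.15 and 0.10 and Abcc4 between −0.016 and 0.23. The cause was not tested. Abcc3 ranged from 0.49 to 0.62 and Slc10a2 from −1.82 to −0.75 over all settings.

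Same-numbered libraries deviated together with correlations of 0.03, 0.03, 0.12 and −0.15, so that the numbers were not read as pairs. With the replicate block Abcc3 was at 0.54 (edgeR adjusted p = 0.0240) and Slc10a2 at −1.19 (edgeR adjusted p = 0.0394), again 1 member higher and 1 lower. Over all genes tested, 340 were called higher and 201 lower, and 564 and 437 with DESeq2. Scaling by library size alone gave 500 higher and 123 lower, and leaving out 1 library gave 151 (WT2) to 710 (WT3) higher and 71 (WT2) to 534 (WT3) lower.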

Other observations

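Slc10a2 lies 760.5 kb from Elavl1 on chromosome 8, a neighbourhood looked at after the values were seen. Of 31 tested genes within 1 Mb of Elavl1, 1 was called, Slc10a2 itself, which is 3.23% against 3.69% of all genes tested. Abcb11 was followed over the 8 libraries most closely by Lsr, with a root mean square difference of 0.0388 in centred log2 CPM, and Lsr had a log2 fold change of 0.41 that did not pass the test (edgeR adjusted p = 0.294).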
